A study of Mus musculus with 5 samples.

Results

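Receptors through which circulating hormones and vasoactive mediators reach hepatic stellate cells were followed in 5 single-cell RNA libraries of sorted mouse liver cells. The 10 genes were taken as listed, and they make up 10 of the 31053 genes in the count matrices. They are the receptors Pth1r, Vipr1, Gcgr, Adcyap1r1, Lpar1, Agtr1a, Ednra and Ednrb, the receptor Calcrl, and its accessory protein Ramp1. All 10 are protein coding. All 5 libraries came from male C57BL/6J mice with the genotype Rosa26mTmG;Col1a1-Cre, in which Cre driven by the Col1a1 promoter turns on GFP for good, so that GFP marks present or past promoter activity. DEN+WAD mice had received DEN (diethylnitrosamine, a liver carcinogen) at 10 mg/kg when 2 weeks old and then, from 6 weeks of age, a Western diet with alcohol at 3.5% by volume for 5 months, whereas control mice had received saline and chow. Cells were sorted on vitamin A autofluorescence (VitA) and GFP (Col1a1) into VitA+Col1a1+ cells (activated stellate cells, aHSC, that still hold vitamin A) and VitA-Col1a1+ cells (stellate cells that have lost it, together with activated portal fibroblasts), for DEN+WAD and chow each, and into VitA-Col1a1- cells for DEN+WAD. Each of the 5 groups had 1 library, the number of mice behind a library was not stated, and differences between groups could not be set against the spread between mice, so no p-value is given. Unless the fifth library is named, VitA+ and VitA- below refer to the Col1a1+ sorts.

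Stellate cells store retinoid in the space between hepatocytes and the sinusoidal endothelium, and they contract, so they are a target of vasoactive peptides as well as a source of collagen. Most of the 10 genes belong to the G protein-coupled receptors. PTH1R (parathyroid hormone and its related peptide), VIPR1 (vasoactive intestinal peptide and PACAP), GCGR (glucagon), ADCYAP1R1 (PACAP) and CALCRL are class B receptors that mostly signal through Gs and cyclic AMP. CALCRL reaches the surface with an accessory protein that sets its ligand: with RAMP1 it binds calcitonin gene-related peptide, with RAMP2 or RAMP3 adrenomedullin. AGTR1A (angiotensin II), EDNRA and EDNRB (endothelins) and LPAR1 (lysophosphatidic acid, made by the enzyme encoded by Enpp2) are class A receptors coupled to Gq, Gi or G12/13. In stellate cells AGTR1A, EDNRA and LPAR1 are known for contraction, proliferation and fibrogenic responses.

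The libraries held 259 to 10481 barcodes with 6145748 to 149936344 UMIs (unique molecular identifiers, 1 for each captured transcript end), the smallest being VitA+ chow, with medians of 9105.5 to 24077 UMIs a barcode. Any pair of libraries shared at most 21 barcodes. Levels are given as CPM, the UMIs of a gene per 1000000 UMIs of its library, with exact Poisson 95% intervals. These intervals, and those of shares and ratios below, cover counting error only and not the spread between mice. The kit counts transcript ends and the values are not scaled by length, so levels are compared between libraries and not between genes. Lrat, the enzyme that esterifies retinol and the gene that defined the stellate gate here, was found in 98.3% of VitA+ DEN+WAD cells of 5000 or more UMIs, 95.7% in VitA+ chow, 73.2% in VitA- DEN+WAD and 74.7% in VitA- chow. The 14 stellate markers summed to 54476 and 50506 CPM in the VitA+ libraries and to 27561 (DEN+WAD) and 12846 (chow) in the VitA- libraries. Portal fibroblast markers (10 genes) went the other way, at 130 and 77.0 in VitA+ DEN+WAD and chow against 2323 and 5668 in VitA- DEN+WAD and chow, with Pi16 alone at 0 and only in VitA+ chow. Endothelial markers (10 genes, none at 0) summed to 324 to 2194 in these 4 libraries, and macrophage markers to 2.44 to 26.9 with Adgre1 and Marco at 0 in all 4. In the VitA-Col1a1- library, Col1a1 was at 1062 CPM, above the 304 of VitA+ DEN+WAD and against its label, and 58.4% of its cells held Lrat. It is called the library labelled VitA-Col1a1- below, and no direction is drawn from that label.

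The RefSeq promoter windows (GRCm38.p6, from 250 bases before to 50 after an annotated start) of the 5 receptors whose levels differed most between the vitamin A gates in chow mice are printed here, because these genes sit together in the results that follow. Capitals mark CG dinucleotides, the sites of CpG methylation. The windows are those of Pth1r (start 1 of 3, chr9:110747096-110747395, minus strand), Vipr1 (chr9:121642466-121642765, plus), Gcgr (chr11:120530477-120530776, plus), Ramp1 (chr1:91179572-91179871, plus) and Calcrl (chr2:84425217-84425516, minus).
Pth1r: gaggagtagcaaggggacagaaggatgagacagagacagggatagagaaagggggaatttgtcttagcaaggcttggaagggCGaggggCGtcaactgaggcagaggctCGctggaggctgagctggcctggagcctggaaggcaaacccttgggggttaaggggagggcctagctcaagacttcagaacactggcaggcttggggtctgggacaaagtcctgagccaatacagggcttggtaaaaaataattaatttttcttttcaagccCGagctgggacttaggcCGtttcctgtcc
Vipr1: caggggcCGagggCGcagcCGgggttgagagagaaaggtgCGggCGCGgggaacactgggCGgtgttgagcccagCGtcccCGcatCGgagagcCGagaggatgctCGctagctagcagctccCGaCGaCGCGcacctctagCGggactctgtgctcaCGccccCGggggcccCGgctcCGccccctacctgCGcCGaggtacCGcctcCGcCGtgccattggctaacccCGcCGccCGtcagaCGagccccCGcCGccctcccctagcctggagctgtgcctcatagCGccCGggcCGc
Gcgr: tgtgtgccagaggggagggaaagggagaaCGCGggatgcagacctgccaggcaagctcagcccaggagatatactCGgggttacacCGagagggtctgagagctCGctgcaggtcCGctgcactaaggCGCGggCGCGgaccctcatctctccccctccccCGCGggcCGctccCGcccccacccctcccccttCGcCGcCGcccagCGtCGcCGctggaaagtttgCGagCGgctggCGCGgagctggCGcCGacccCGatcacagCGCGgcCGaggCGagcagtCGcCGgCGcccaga
Ramp1: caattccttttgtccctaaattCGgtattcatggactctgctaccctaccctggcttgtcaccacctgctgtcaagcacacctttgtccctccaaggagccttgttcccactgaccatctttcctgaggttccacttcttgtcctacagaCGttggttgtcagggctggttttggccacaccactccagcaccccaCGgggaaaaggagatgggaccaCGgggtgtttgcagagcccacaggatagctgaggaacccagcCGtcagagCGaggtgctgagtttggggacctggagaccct
Calcrl: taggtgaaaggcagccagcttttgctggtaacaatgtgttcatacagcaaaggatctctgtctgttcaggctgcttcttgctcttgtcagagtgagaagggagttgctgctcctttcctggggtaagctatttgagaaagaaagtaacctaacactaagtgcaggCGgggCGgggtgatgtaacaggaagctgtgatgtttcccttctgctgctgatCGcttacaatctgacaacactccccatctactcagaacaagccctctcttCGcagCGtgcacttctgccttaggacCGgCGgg

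Vipr1 and Gcgr have CpG-rich windows, with 35 and 34 CG dinucleotides, a number that only 6.95% and 7.73% of the 32851 windows of the annotation reach. Calcrl (7), Ramp1 (6) and the first Pth1r start (5) are close to the median window, which has 7. The inner Pth1r starts are CpG-rich again (23 and 27), and which start these cells use cannot be read from transcript ends. Of the other members, Adcyap1r1 has 17 CG dinucleotides, Ednrb 15, Ednra 8 and the 3 Lpar1 starts 14, 37 and 3. In all, 13 windows were found for 9 of the 10 members, with none for Agtr1a. Searched on both strands, the GATA site AGATAA (in 11.2% of all windows), the cyclic AMP response element TGACGTCA (1.79%) and the nuclear receptor half-site AGGTCA (16.3%) were in none of the 13. The LIM homeodomain site TAATTA, a palindrome found in 5.29% of all windows, was in the first Pth1r window and in the third Lpar1 window, which also held the E-box CATCTG (17.2% of all windows). A match is a description of letters only.

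The peptide hormone receptors come first. Pth1r (chr9:110722085-110747145, minus strand, with this and all later coordinates in GRCm38) had 1129 CPM (95% interval 1124 to 1134) in VitA+ DEN+WAD, 1024 (999 to 1050) in VitA+ chow, 367 (361 to 372) in VitA- DEN+WAD, 116 (110 to 121) in VitA- chow and 186 (183 to 189) in the library labelled VitA-Col1a1-. Pth1r was thus high in both vitamin A-positive sorts, intermediate in the VitA- cells of diseased livers and lowest in those of chow livers. Vipr1 (chr9:121642716-121672954, plus) had 810 (805 to 814) in VitA+ DEN+WAD, 1216 (1189 to 1244) in VitA+ chow, 267 (262 to 272) in VitA- DEN+WAD, 115 (109 to 120) in VitA- chow and 121 (118 to 123) in the library labelled VitA-Col1a1-. The order was that of Pth1r except that chow was above DEN+WAD in the VitA+ gate, and its lowest pair of libraries had overlapping intervals.

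Gcgr (chr11:120530699-120538986, plus) had 42.7 (41.7 to 43.8) CPM in VitA+ DEN+WAD, 43.0 (37.9 to 48.5) in VitA+ chow, 10.3 (9.46 to 11.3) in VitA- DEN+WAD, 1.93 (1.30 to 2.78, from 29 UMIs) in VitA- chow and 5.48 (5.04 to 5.94) in the library labelled VitA-Col1a1-. The VitA+ libraries did not differ beyond counting error, and the glucagon receptor was lowest in VitA- chow cells. Adcyap1r1 (chr6:55451978-55501451, plus) stayed within a narrow range, at 35.5 (34.6 to 36.5) in VitA+ DEN+WAD, 32.7 (28.3 to 37.6) in VitA+ chow, 28.1 (25.5 to 31.0) in VitA- chow and 24.2 (22.8 to 25.6) in VitA- DEN+WAD. Its lowest level, 8.08 CPM, was that of the library labelled VitA-Col1a1- (7.55 to 8.64).

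The receptors for angiotensin and endothelin fell into different patterns. Agtr1a (chr13:30336441-30382867, plus), the type 1a angiotensin II receptor, followed Pth1r with 546 (542 to 549) in VitA+ DEN+WAD, 487 (470 to 505) in VitA+ chow, 234 (229 to 238) in VitA- DEN+WAD, 116 (111 to 122) in VitA- chow and 117 (115 to 119) in the library labelled VitA-Col1a1-. Ednra (chr8:77663031-77724464, minus), the endothelin A receptor, had 271 (269 to 274) in VitA+ DEN+WAD, 291 (278 to 305) in VitA+ chow, 156 (153 to 160) in VitA- DEN+WAD, 75.3 (71.0 to 79.9) in VitA- chow and 83.0 (81.2 to 84.7) in the library labelled VitA-Col1a1-. Its relative Ednrb (chr14:103814625-103844402, minus), the endothelin B receptor, did not separate the gates. Ednrb had 788 (774 to 803) in VitA- chow, 727 (706 to 748) in VitA+ chow, 550 (546 to 553) in VitA+ DEN+WAD, 528 (521 to 535) in VitA- DEN+WAD and 295 (291 to 298) in the library labelled VitA-Col1a1-, so that its order followed the diet more than the gate. Lpar1 (chr4:58435255-58553898, minus) was the member that was clearly higher in the VitA- than in the VitA+ sort of each diet. It had 125 (119 to 130) in VitA- chow, 81.1 (78.6 to 83.7) in VitA- DEN+WAD, 51.3 (45.8 to 57.2) in VitA+ chow, and 43.7 in both VitA+ DEN+WAD (42.7 to 44.8) and the library labelled VitA-Col1a1- (42.4 to 45).

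Both parts of the calcitonin gene-related peptide receptor were abundant in vitamin A-positive cells. Ramp1 (chr1:91179822-91225196, plus) had 1055 (1050 to 1060) in VitA+ DEN+WAD, 826 (804 to 849) in VitA+ chow, 309 (304 to 314) in VitA- DEN+WAD, 191 (188 to 193) in the library labelled VitA-Col1a1- and 101 (96.2 to 106) in VitA- chow. Calcrl (chr2:84330626-84425411, minus) had 624 (605 to 644) in VitA+ chow, 400 (397 to 404) in VitA+ DEN+WAD, 161 (158 to 165) in VitA- DEN+WAD, 123 (121 to 126) in the library labelled VitA-Col1a1- and 52.3 (48.7 to 56.1) in VitA- chow. Receptor and accessory protein thus shared the order of the gates but not that of the diets within the VitA+ gate. The alternative partner Ramp2 was at 113, 87.4, 175, 67.9 and 139 in VitA+ DEN+WAD, VitA+ chow, VitA- DEN+WAD, VitA- chow and the library labelled VitA-Col1a1-. Ramp3 was at most 4.35 in any library and had 0 UMIs in VitA+ chow.

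**Figure D1:**
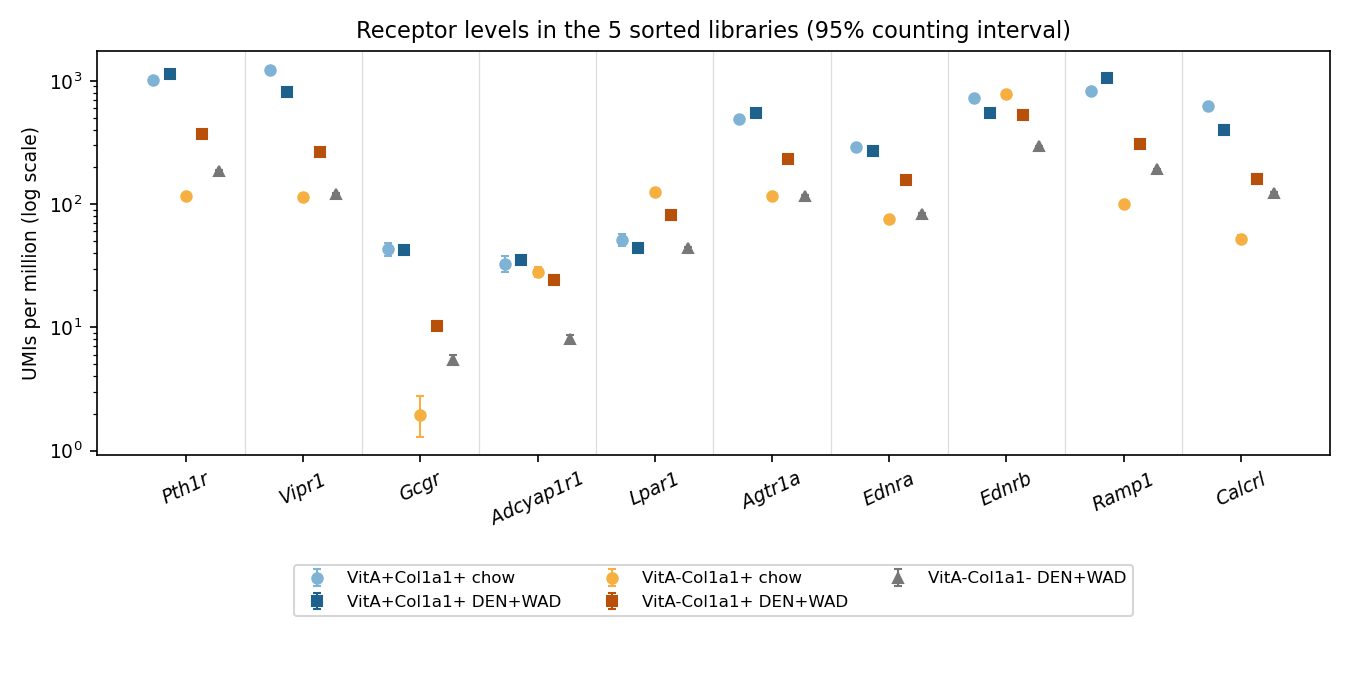
CPM (vertical, log scale) of the 10 receptors (horizontal) in the 5 libraries, 1 library a group, with exact Poisson 95% intervals as bars. Pth1r, Vipr1, Gcgr, Agtr1a, Ednra, Ramp1 and Calcrl are highest in the VitA+ libraries (blue) and lowest in VitA- chow (light orange), where Vipr1 and Agtr1a overlap the library labelled VitA-Col1a1- (grey), Lpar1 is highest in VitA- chow, and Ednrb and Adcyap1r1 lie close together in the 4 Col1a1+ libraries.

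The ligands were mostly not found in these cells. Gcg and Adcyap1 had 0 UMIs in all 5 libraries, as did the related receptors Calcr and Agtr2, while Vip had at most 3 UMIs in any library and Pthlh reached 1.09 CPM. Edn1 was at 2.23, 0.651, 10.1, 3.80 and 23.6 and Agt at 0.494, 1.30, 7.98, 1.67 and 32.3 in VitA+ DEN+WAD, VitA+ chow, VitA- DEN+WAD, VitA- chow and the library labelled VitA-Col1a1-. Adm, which encodes adrenomedullin, was the exception, at 83.2 to 127. Enpp2 was at 4.64 and 4.88 in VitA+ DEN+WAD and chow but 27.8 and 39.8 in VitA- DEN+WAD and chow, so the enzyme that makes lysophosphatidic acid was highest in the same libraries as Lpar1.

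DEN+WAD against chow was compared first within the VitA+ gate. A gene was counted as past the limit at a ratio of 2-fold or more, with a gene at 5 or more CPM in either library as the condition to enter. No member passed in either direction, beside 1.41% of 9907 genes higher and 3.94% lower. Calcrl was 1.56-fold lower in DEN+WAD (ratio 0.642, interval 0.621 to 0.663), Vipr1 1.5-fold lower (0.651 to 0.682 around 0.666) and Ednrb 1.32-fold lower (0.734 to 0.780 around 0.756). Ramp1 was 1.28-fold higher (1.24 to 1.31), with Agtr1a at 1.12 (1.08 to 1.16) and Pth1r at 1.1 (1.08 to 1.13). The ratios of Gcgr (0.995, 0.879 to 1.13) and Adcyap1r1 (1.09, 0.943 to 1.26) held 1 in their intervals. Lpar1 was at 0.853 (0.762 to 0.958). Ednra was at 0.932 (0.889 to 0.978), a log2 ratio of -0.10 that turned to 0.09 with TMM scaling. Endothelial cells also hold Calcrl (below), and their markers summed to 324 in DEN+WAD against 762 in chow, while within Lrat-positive cells with under 3 portal fibroblast markers the Calcrl ratio was 0.648 (0.626 to 0.670). The median of the members, -0.05 on the log2 scale, was near the -0.08 of all genes tested.

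Within the VitA- gate the same comparison gave larger ratios. Here 7 members were higher past 2-fold in DEN+WAD and 0 lower, beside 5.04% of 10583 genes higher and 5.54% lower. Gcgr was 5.35-fold higher (3.68 to 8.08), Pth1r 3.17-fold (3.02 to 3.33), Calcrl 3.08-fold (2.86 to 3.32) and Ramp1 3.05-fold (2.89 to 3.22). Vipr1 was 2.33-fold higher (2.21 to 2.45), Ednra 2.07-fold (1.95 to 2.21) and Agtr1a 2.01-fold (1.91 to 2.11). Ednra and Agtr1a had lower bounds under the limit. Lpar1 was 1.54-fold lower (0.616 to 0.689 around 0.651), Ednrb 1.49-fold lower (0.655 to 0.684 around 0.670), and Adcyap1r1 at 0.859 (0.768 to 0.963). The member median was 1.13 on the log2 scale beside -0.03 for all genes tested. In summed libraries, fewer cells of a type and less RNA per cell cannot be told apart, and the cell makeup of these libraries differed: among Lrat-positive cells, 82.3% held 3 or more of the 10 portal fibroblast markers in VitA- chow against 32.2% in VitA- DEN+WAD, 0.823% in VitA+ chow and 1.36% in VitA+ DEN+WAD. Lrat itself was 1.61-fold higher in VitA- DEN+WAD than in VitA- chow.

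When only Lrat-positive cells with under 3 portal fibroblast markers were summed (1276 cells in VitA- DEN+WAD, 85 in VitA- chow), 0 of 10 members passed 2-fold, beside 3.75% of 10400 genes higher. Still, 8 of the 10 ratios were above 1, 7 of them with intervals above 1. Pth1r was then the largest at 1.79 (1.65 to 1.94, 653 against 365 CPM), followed by Ramp1 at 1.61 (1.48 to 1.75) and Lpar1 at 1.57 (1.21 to 2.06), whose direction differed from that of the whole libraries. Gcgr was at 1.45 (0.967 to 2.26, 20.2 against 14), Vipr1 at 1.09 (1.01 to 1.17) and Calcrl at 1.31 (1.17 to 1.47), while Adcyap1r1 (0.558, 0.451 to 0.697) and Ednrb (0.717, 0.680 to 0.757) were lower. In the VitA+ gate the same restriction moved little, with Vipr1 at 0.660 and Ramp1 at 1.26.

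The vitamin A gates were then compared within chow mice. In VitA- cells 7 members were lower past 2-fold and 1 higher, beside 5.68% of 10569 genes lower and 11.9% higher. Gcgr was 22.2-fold lower (ratio 0.045, interval 0.0296 to 0.0662), Calcrl 11.9-fold, Vipr1 10.6-fold, Pth1r 8.85-fold and Ramp1 8.16-fold. Agtr1a was 4.18-fold lower and Ednra 3.86-fold, beside 5.09-fold for Lrat. Those first 5, the receptors whose promoter windows are printed above, therefore differed more than the gene that marks the cells. Lpar1 was 2.43-fold higher (2.16 to 2.75), and Ednrb (1.09, 1.05 to 1.12) and Adcyap1r1 (0.860, 0.726 to 1.02) were near 1. Col1a1 was 18.4-fold higher in the same comparison, and the member median was -2.55 on the log2 scale beside 0.08 for all genes.

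The gates of DEN+WAD mice gave the same split at smaller size. In VitA- cells 6 members were lower past 2-fold and 0 higher, beside 1.72% of 10270 genes lower and 10.2% higher. Gcgr was 4.13-fold lower, Ramp1 3.42-fold, Pth1r 3.08-fold, Vipr1 3.03-fold, Calcrl 2.48-fold and Agtr1a 2.33-fold, beside 2.45-fold for Lrat. Ednra was 1.74-fold and Adcyap1r1 1.47-fold lower, Lpar1 was 1.86-fold higher (1.78 to 1.93), and Ednrb was at 0.961 (0.947 to 0.974). Col1a1 was 3.15-fold higher, and the member median was -1.27 on the log2 scale beside 0.10. The 4 comparisons share libraries, so their directions are not independent of each other.

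Restricted to Lrat-positive cells with under 3 portal fibroblast markers, 5 members were lower past 2-fold in VitA- chow, beside 4.51% of 10409 genes lower. They were Calcrl (3.56-fold), Gcgr (3.20-fold), Pth1r and Vipr1 (2.91-fold each) and Ramp1 (2.49-fold). Agtr1a, at 2.00-fold, lay at the limit without passing it, and Lpar1 turned to 1.52-fold lower (ratio 0.658, 0.492 to 0.869). In DEN+WAD 1 member passed, Gcgr at 2.18-fold lower (0.459, 0.416 to 0.505), beside 0.504% of 9914 genes lower, and Ramp1 (1.95-fold), Pth1r (1.77-fold), Vipr1 (1.77-fold) and Calcrl (1.76-fold) stayed under it with intervals below 1. Ednrb was at 1.11 (chow) and 1.07 (DEN+WAD). The lower levels of Pth1r, Vipr1, Gcgr, Ramp1 and Calcrl in the VitA- gate were therefore also measured among cells with few portal fibroblast markers, at smaller ratios.

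**Figure D2:**
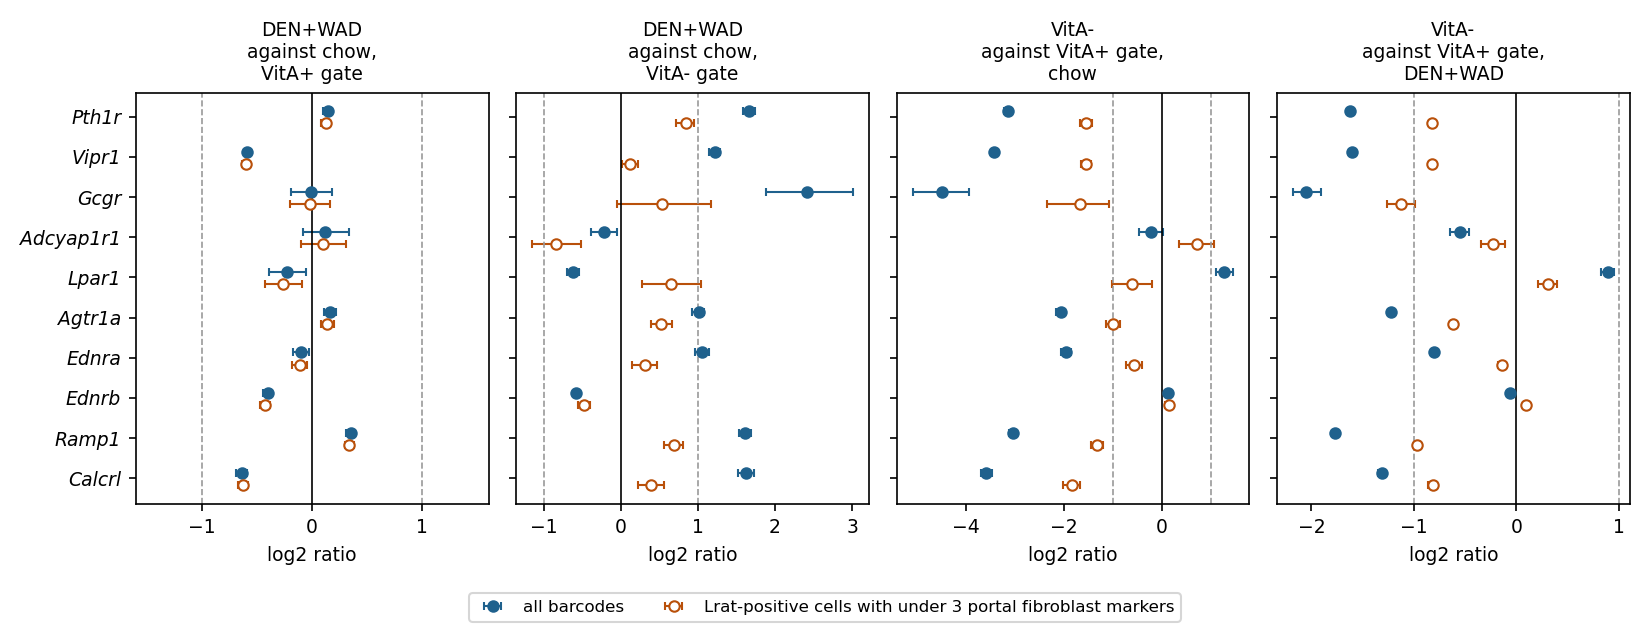
Log2 ratio (horizontal) of each of the 10 receptors (vertical) in the 4 comparisons, over all barcodes (filled) and over Lrat-positive cells of 5000 or more UMIs with under 3 portal fibroblast markers (open), with 95% counting intervals. Dashed lines mark the 2-fold limit, and the open points lie closer to 0 than the filled ones for Pth1r, Vipr1, Gcgr, Ramp1 and Calcrl in the 3 panels that involve VitA- cells.

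Among single cells, each of 5000 or more UMIs and thinned to 5000, most vitamin A-positive stellate cells held most of the abundant receptors. In VitA+ DEN+WAD (10044 Lrat-positive cells), Pth1r was found in 97.1% (96.7 to 97.4), Ramp1 in 95.6% (95.1 to 96.0), Vipr1 in 95.2% (94.8 to 95.6), Agtr1a in 90.5% (89.9 to 91.0), Ednrb in 87.0% (86.3 to 87.7), Calcrl in 80.5% (79.7 to 81.2) and Ednra in 71.2% (70.3 to 72.1). Gcgr (18.7%, 18.0 to 19.5), Lpar1 (16.5%, 15.8 to 17.2) and Adcyap1r1 (15.3%, 14.6 to 16.1) were found in a minority at this depth, and without thinning Gcgr was found in 35.8%. VitA+ chow (243 cells) gave like shares for Pth1r, at 97.9% (95.3 to 99.3), and Gcgr, at 18.9% (14.2 to 24.4). Its shares were higher beyond counting error for Vipr1 at 99.2% (97.1 to 99.9), Calcrl at 91.8% (87.6 to 94.9) and Ednrb at 93.4% (89.5 to 96.2). The median cell held 7 of the 10 receptors in both VitA+ libraries, 5 in VitA- DEN+WAD, 3 in VitA- chow and 4 in the library labelled VitA-Col1a1-. Pth1r, Vipr1, Ramp1 and Agtr1a were all present in 83.2% of VitA+ DEN+WAD cells and 85.2% of VitA+ chow cells, against 40.8% in VitA- DEN+WAD and 8.12% in VitA- chow.

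The VitA- shares were lower for the same receptors. Of 1883 Lrat-positive cells in VitA- DEN+WAD, 70.2% (68.0 to 72.2) held Pth1r and 5.63% (4.63 to 6.77) Gcgr, and of 480 in VitA- chow, 40.8% (36.4 to 45.4) held Pth1r and 1.25% (0.46 to 2.70) Gcgr. Both Calcrl and Ramp1, the pair that makes the calcitonin gene-related peptide receptor, were found in 77.7% (76.9 to 78.6) of cells in VitA+ DEN+WAD, 89.7% (85.2 to 93.2) in VitA+ chow, 36.9% (34.7 to 39.1) in VitA- DEN+WAD and 6.46% (4.43 to 9.04) in VitA- chow. Lpar1 went the other way, at 20.2% (15.3 to 25.8) in VitA+ chow, 27.7% (25.7 to 29.8) in VitA- DEN+WAD and 39.4% (35.0 to 43.9) in VitA- chow. This did not hold without the cells of 3 or more portal fibroblast markers, where Lpar1 was at 19.5%, 19.7% and 11.8% in the same order. Ednrb was held by 81.1% (79.3 to 82.9) in VitA- DEN+WAD and 87.7% (84.4 to 90.5) in VitA- chow. The median depth before thinning was 13363 UMIs in VitA+ DEN+WAD, 24587 in VitA+ chow, 17418 in VitA- DEN+WAD and 23298 in VitA- chow.

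Free RNA sets a floor under such shares, and it was read from cells of other types. These cells were chosen without Lrat, an abundant stellate transcript, which can leave out barcodes with more free stellate RNA. The floor may therefore lie higher than the values read. In 137 Lrat-negative cells of VitA+ DEN+WAD with 4 or more endothelial markers (median depth 8875 UMIs), Pth1r was found in 7.30%, Ramp1 in 5.84%, Agtr1a in 3.65%, Ednra in 1.46% and Vipr1 in 11.7%, while Gcgr, Adcyap1r1 and Lpar1 were in 0 of 137, which at a floor of 3 cells of 137 leaves a share of 2.19% possible. Among 857 macrophage-marked cells (median depth 19014) sorted as VitA-Col1a1-, the shares were 1.28% for Pth1r, 6.07% for Ramp1, 0.233% for Gcgr and 1.17% for Lpar1. For the receptors named in this paragraph, the shares in Lrat-positive cells of VitA+ DEN+WAD were well above these values. No floor was read for Calcrl and Ednrb, which were common in the endothelial-marked cells (below). None is given for the VitA- libraries either. The Gcgr share of 1.25% in VitA- chow rested on 6 cells.

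Some of the 10 genes were not limited to stellate cells. Calcrl was found in 80.3% (72.6 to 86.6) of the same endothelial-marked cells, together with Ramp2 in 90.5% (84.3 to 94.9) and Ramp1 in 5.84% (2.55 to 11.2). Those cells thus held the receptor mostly without the accessory protein found with it in stellate cells. Ednrb was in 29.2% (21.7 to 37.6) of them. In VitA- DEN+WAD, Lrat-negative cells with 3 or more portal fibroblast markers (279 cells, median depth 19964) held Ednrb in 73.1%, Lpar1 in 44.1%, Agtr1a in 37.6% and Pth1r in 32.6%, but Calcrl in 3.94% and Gcgr in 0 cells, which at the same floor leaves 1.08% possible. Smooth muscle-marked cells (95 cells, median depth 17841) held Ednrb in 87.4%, Agtr1a in 50.5% and Pth1r in 37.9%, but Calcrl in 6.32%. Among the mesenchymal classes of that library, Calcrl was thus found mostly in Lrat-positive cells. Gcgr was found in only 5.63% of the Lrat-positive cells there after thinning. It was too sparse for its absence in a class to limit the share of cells that express it.

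Within Lrat-positive cells the shares also moved with portal fibroblast markers. In VitA- DEN+WAD, cells with under 3 of them (1276 cells, median depth 16345) against cells with 3 or more (607 cells, 20480) held Pth1r in 80.6% against 48.3%, Vipr1 in 78.6% against 40.5%, Ramp1 in 79.4% against 41.7%, Calcrl in 57.8% against 16.8% and Gcgr in 7.92% against 0.824%. Lpar1 was at 19.7% against 44.5%, Ednrb at 81.7% against 79.9% and Adcyap1r1 at 13.7% against 13.5%. VitA- chow showed the same order in 85 against 395 cells, with Calcrl in 34.1% against 5.32%, Gcgr in 7.06% against 0 (0.759% at the floor of 3 cells) and Lpar1 in 11.8% against 45.3%. The boundary is not sharp, since 216 Lrat-positive cells of VitA- DEN+WAD held exactly 3 such markers and 302 held 2, against 40 and 32 in VitA- chow.

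**Figure D3:**
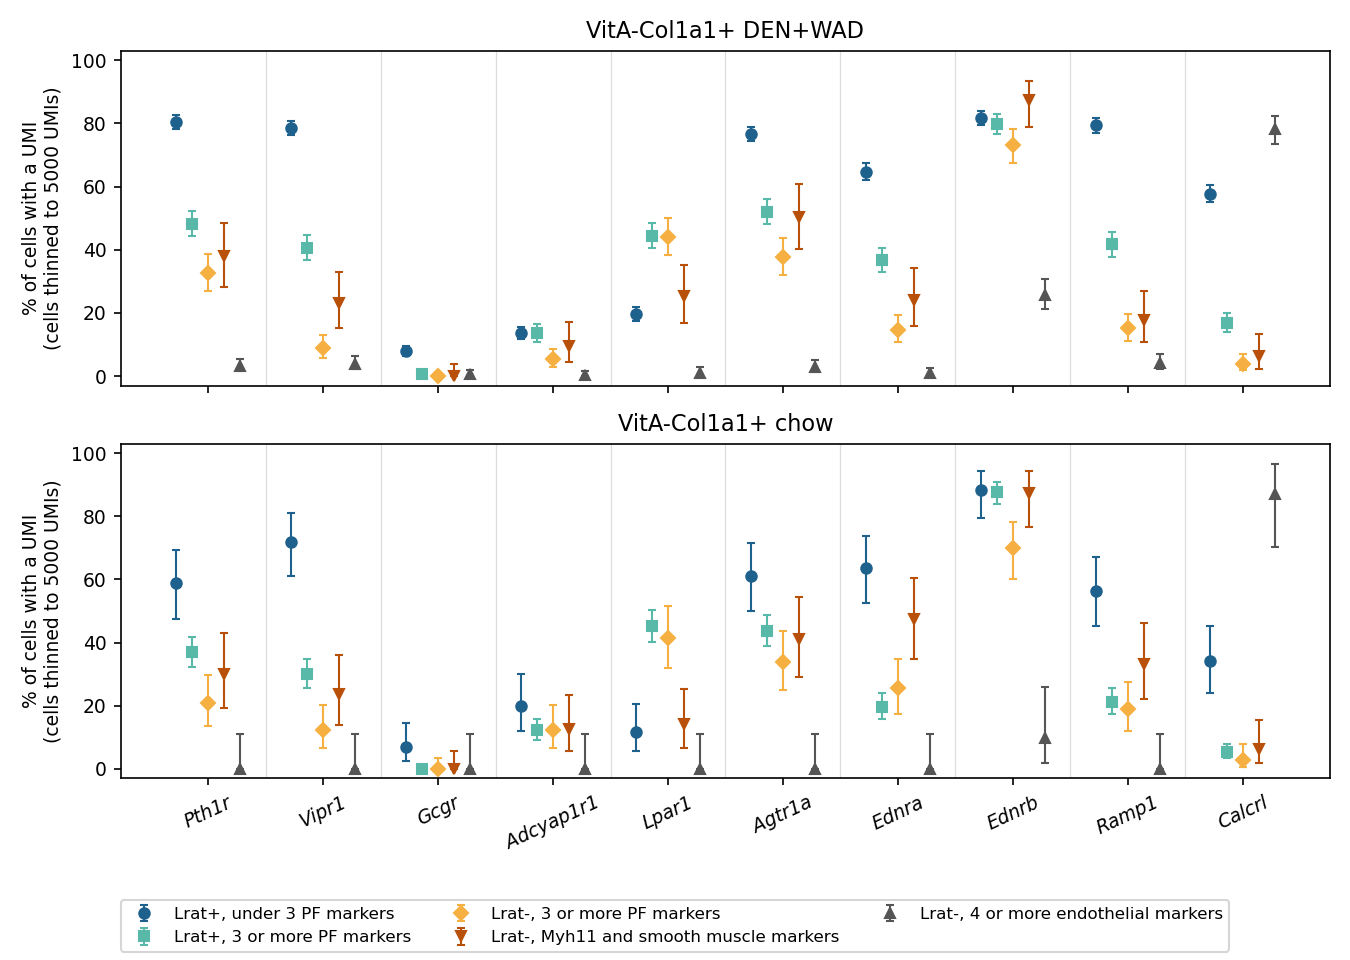
Percent of cells holding at least 1 UMI of each receptor after thinning to 5000 UMIs (vertical) for 5 cell classes of the VitA-Col1a1+ DEN+WAD (top) and chow (bottom) libraries, with exact Clopper-Pearson 95% intervals (PF, portal fibroblast). Lrat-positive cells with under 3 portal fibroblast markers lie highest for Pth1r, Vipr1, Gcgr, Ramp1, Agtr1a and Ednra, endothelial-marked cells (78.1% and 87.1%) lie highest for Calcrl, and cells with 3 or more portal fibroblast markers lie highest for Lpar1.

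Pairs of receptors were examined cell by cell in the same thinned cells. For each of the 45 pairs, the mean product of the UMIs was divided by the product of the means, and a pair was called together at a ratio of 1.25 or more and apart at 0.8 or less where the shares alone predicted 20 or more cells with both. In VitA+ DEN+WAD, 45 pairs could be described, with 2 together, 4 apart and a median ratio of 1.03. A ratio near 1 does not show that receptors are independent of each other. Pth1r, Vipr1, Agtr1a and Ednra varied so little between cells (squared coefficient of variation beyond counting noise 0.17, 0.13, 0.12 and 0.16) that pairs among them could not reach 1.25. The same held for a pair of any of them with Ednrb (0.34), Ramp1 (0.31) or Calcrl (0.25). All 4 pairs apart involved Lpar1, with Gcgr (0.378), Adcyap1r1 (0.664), Ramp1 (0.720) and Pth1r (0.767). Without thinning, Gcgr with Lpar1 was the 1 pair still apart (0.503), and Lpar1 was at 0.824 with Adcyap1r1, 0.866 with Ramp1 and 0.902 with Pth1r. The pairs together were Gcgr with Adcyap1r1 (1.49) and Gcgr with Ramp1 (1.44), and Gcgr with Pth1r lay just under the limit at 1.25 after rounding.

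In each DEN+WAD library, the glucagon and lysophosphatidic acid receptors were the pair kept farthest apart. In the chow libraries the lowest described pair was Lpar1 with Ramp1, at 0.879 in VitA+ chow and 0.480 in VitA- chow. Both were found in 138 cells of VitA+ DEN+WAD where the product of their shares gives 310. Lpar1 was found in 7.34% (6.20 to 8.61) of the cells with Gcgr and in 18.6% (17.8 to 19.5) of those without. In VitA- DEN+WAD both were found in 8 cells against 29.4 (ratio 0.158), in the library labelled VitA-Col1a1- in 12 against 22.9 (0.451), and in VitA+ chow in 4 against 9.28, too few to be described. Gcgr and Adcyap1r1, receptors for glucagon and PACAP, met in 368 cells against 289, with Adcyap1r1 in 19.6% (17.8 to 21.4) of cells with Gcgr and 14.4% (13.6 to 15.1) without. The endothelin receptors Ednra and Ednrb were neither together nor apart, with ratios of 1.01 in VitA+ DEN+WAD, 0.998 in VitA+ chow and 1.04 in VitA- DEN+WAD. Ramp1 and Calcrl were at 1.09 in VitA+ DEN+WAD.

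In the VitA- libraries, more pairs were together, but the abundant receptors also varied more between cells there. In VitA- DEN+WAD that variation beyond counting noise was 1.04 for Pth1r, 0.62 for Vipr1, 0.45 for Agtr1a and 0.60 for Ednra, which leaves room for higher ratios. Of 44 pairs described in VitA- DEN+WAD, 22 were together and 6 apart with a median ratio of 1.26, and of 29 in VitA- chow, 14 were together and 4 apart with a median of 1.22. Ramp1 and Calcrl had a ratio of 1.79 in VitA- DEN+WAD, with Calcrl in 54.8% of cells with Ramp1 and 23.5% of cells without. Pth1r and Vipr1 were at 1.57 in VitA- DEN+WAD and 2.72 in VitA- chow, and Pth1r and Calcrl at 4.74 in VitA- chow. Without the cells of 3 or more portal fibroblast markers, 2 pairs were apart in VitA- DEN+WAD and 9 together and 0 apart in VitA- chow. VitA+ chow had 4 pairs together and 0 apart of 42, and the library labelled VitA-Col1a1- had 21 and 2 of 44.

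**Figure D4:**
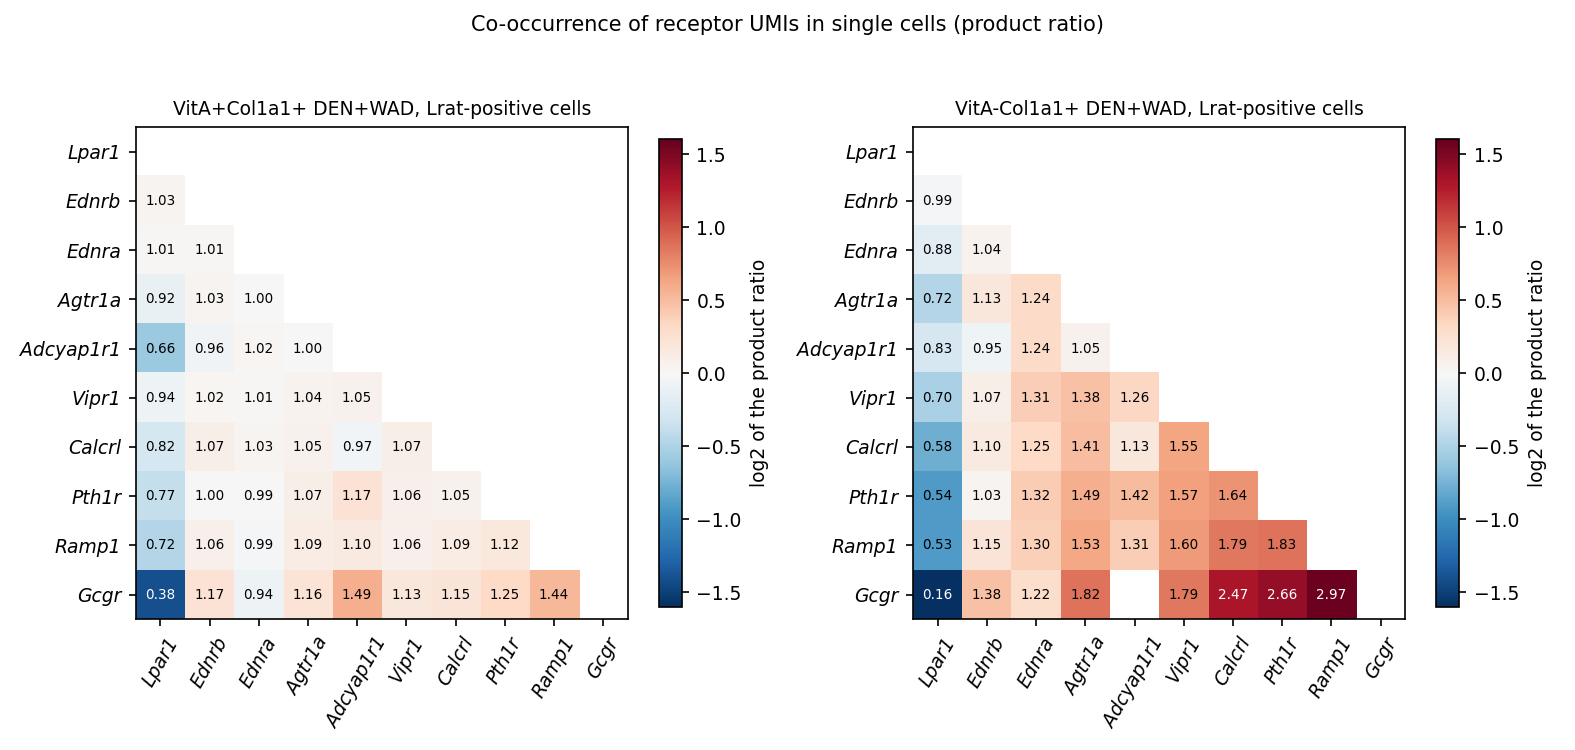
Ratio of the mean product of UMIs to the product of mean UMIs for every described pair of receptors in Lrat-positive cells of VitA+Col1a1+ DEN+WAD (left) and VitA-Col1a1+ DEN+WAD (right), printed in each cell and coloured on a log2 scale that ends short of the lowest value, with undescribed pairs blank. The Lpar1 column is blue in both libraries for Gcgr, Ramp1 and Pth1r. The Gcgr row is mostly red outside that column, up to 1.49 on the left and 2.97 on the right.

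The cells were next ordered by Col1a1, a collagen gene outside the listed members. In VitA+ DEN+WAD, 6492 Lrat-positive cells had 0 Col1a1 UMIs after thinning, 2478 had 1 to 2 and 1074 had 3 or more. Gcgr was found in 22.7% (21.7 to 23.7), 14.2% (12.9 to 15.6) and 5.31% (4.04 to 6.82) of them. Ramp1 was at 1285, 954 and 557 CPM, Calcrl at 453, 375 and 232, Vipr1 at 898, 813 and 547, and Pth1r at 1245, 1128 and 855 in the same order. In this library these receptors were thus lower step by step in cells with more Col1a1 transcript. Lpar1 was found in 14.4% (13.6 to 15.3), 18.6% (17.1 to 20.2) and 23.9% (21.4 to 26.6). Ednra (271, 284 and 270 CPM) was level, and Lrat was at 1569, 1571 and 1297.

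Portal fibroblast markers moved with Col1a1 too, since 3 or more of them were found in 0.200% of the cells with 0 Col1a1 UMIs and 9.50% of those with 3 or more. Without those cells (972 with 3 or more Col1a1 UMIs against 6479 with 0), 7 members had ratios with intervals below 1, 1 above and 2 including 1. The share of all genes with such intervals was not computed for any split by collagen. These counts and those below therefore have no background beside them. Gcgr was 4.36-fold lower (0.229, 0.177 to 0.293), Ramp1 2.20-fold lower (0.438 to 0.472 around 0.455) and Calcrl 1.82-fold lower (0.517 to 0.582 around 0.549) in the cells with more Col1a1. Lpar1 was 1.59-fold higher (1.39 to 1.81), and Adcyap1r1 (1.09, 0.926 to 1.27) and Ednra (1.03, 0.967 to 1.09) did not differ beyond counting error. VitA- DEN+WAD gave 8 below, 1 above and 1 including 1 in 345 against 533 cells, with Gcgr at 0.131 (0.0552 to 0.270), Calcrl at 0.313 (0.266 to 0.366), Ramp1 at 0.393 (0.358 to 0.430) and Lpar1 at 1.85 (1.39 to 2.46). The other libraries did not all share this order. In VitA+ chow (20 cells with 3 or more Col1a1 UMIs against 162 with 0), 7 members included 1, among them Pth1r (1.01, 0.818 to 1.25), Gcgr (0.920, 0.285 to 2.32) and Calcrl (0.776, 0.568 to 1.04), while Vipr1 (0.725, 0.578 to 0.899) and Ramp1 (0.742, 0.565 to 0.959) were lower and Adcyap1r1 (3.54, 1.23 to 9.10) higher. In the library labelled VitA-Col1a1-, 3 members were lower and 6 higher, with Calcrl at 0.244 (0.224 to 0.266) but Pth1r at 1.46 (1.37 to 1.57) and Ednra at 1.51 (1.36 to 1.68), and 66.5% of its cells with 0 Col1a1 UMIs carried 4 or more markers of another type against 11.5% of those with 3 or more. Among its cells with under 3 portal fibroblast markers Pth1r was at 1.90 (1.77 to 2.04). The counts of this library turned with the Lrat limit. They were 5 lower and 1 higher with 2 or more Lrat UMIs, and 7 lower and 1 higher with 5 or more. Ordered by summed Col1a1, Col1a2 and Col3a1, VitA- DEN+WAD gave 8 members higher and 1 lower, and 73.0% of its 74 cells at 0 carried 4 or more markers of another type. The part of those cells in these results was not tested. A different activation gene, Acta2, which encodes smooth muscle actin, gave a partly different order in VitA+ DEN+WAD (298 cells with 3 or more UMIs against 9475 with 0). Calcrl was again lower (0.446, 0.395 to 0.502), but Ednrb (1.22, 1.14 to 1.30) and Adcyap1r1 (1.56, 1.23 to 1.94) were higher and Gcgr (0.803, 0.610 to 1.04) and Lpar1 (1.03, 0.790 to 1.32) did not differ beyond counting error.

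Stellate cells near the portal vein are known to express Ngfr, a neurotrophin receptor, and those near the central vein Adamtsl2, a secreted matrix protein, so the same cells were split by these genes. The other zonal markers (Igfbp3 and Il34 portal, Rspo3 central) were not used in the split. In chow, Adamtsl2 was at 462 CPM in VitA- against 194 in VitA+, but summed with Rspo3 it was at 541 against 1192. Ngfr was at 28.0 against 304, but summed with Igfbp3 and Il34 it was at 2902 against 2958. The split therefore orders cells by these genes, not by zone. In VitA+ DEN+WAD, Gcgr was found in 30.1% (28.7 to 31.6) of 3908 cells with Ngfr only, 14.7% (12.9 to 16.6) of 1431 with both, 13.3% (12.1 to 14.6) of 2849 with neither and 6.09% (5.04 to 7.27) of 1856 with Adamtsl2 only. Lpar1 ran in reverse, at 8.60% (7.74 to 9.52), 17.2% (15.3 to 19.2), 20.1% (18.7 to 21.7) and 26.9% (24.9 to 29.0). The glucagon and lysophosphatidic acid receptors thus ran in opposite directions along this marker axis. Lrat was at 1521 CPM in the Ngfr-only cells and 1520 in the Adamtsl2-only cells.

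In VitA+ DEN+WAD the other receptors differed by less along this axis. Among its cells with under 3 portal fibroblast markers (3905 with Ngfr only, 1762 with Adamtsl2 only), Gcgr was 5.43-fold higher in the Ngfr-only cells (4.54 to 6.53), Ramp1 1.74-fold (1.70 to 1.79), Adcyap1r1 1.64-fold (1.43 to 1.90), Pth1r 1.5-fold (1.47 to 1.54) and Calcrl 1.33-fold (1.28 to 1.39). Agtr1a (1.27), Ednrb (1.21) and Vipr1 (1.20) were higher by less, while Lpar1 was 3.34-fold lower (0.300, 0.263 to 0.340) and Ednra at 0.874 (0.833 to 0.916). In VitA- DEN+WAD (222 against 510 cells), Gcgr was at 32.6 (13.3 to 104), Pth1r at 2.68 (2.49 to 2.89), Ramp1 at 2.56 (2.37 to 2.77), Calcrl at 2.20 (1.92 to 2.51) and Lpar1 6.57-fold lower (0.152, 0.0773 to 0.273). In the small VitA+ chow library (89 against 66 cells) Gcgr was at 2.89 (1.42 to 6.5), Pth1r at 1.5 (1.29 to 1.73) and Lpar1 at 0.506 (0.244 to 1.02), while Adcyap1r1 was at 7.17 (2.22 to 36.8) and Calcrl at 0.913 (0.757 to 1.1). These are cells of 1 library each, and a receptor's place in the liver was not measured.

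**Figure D5:**
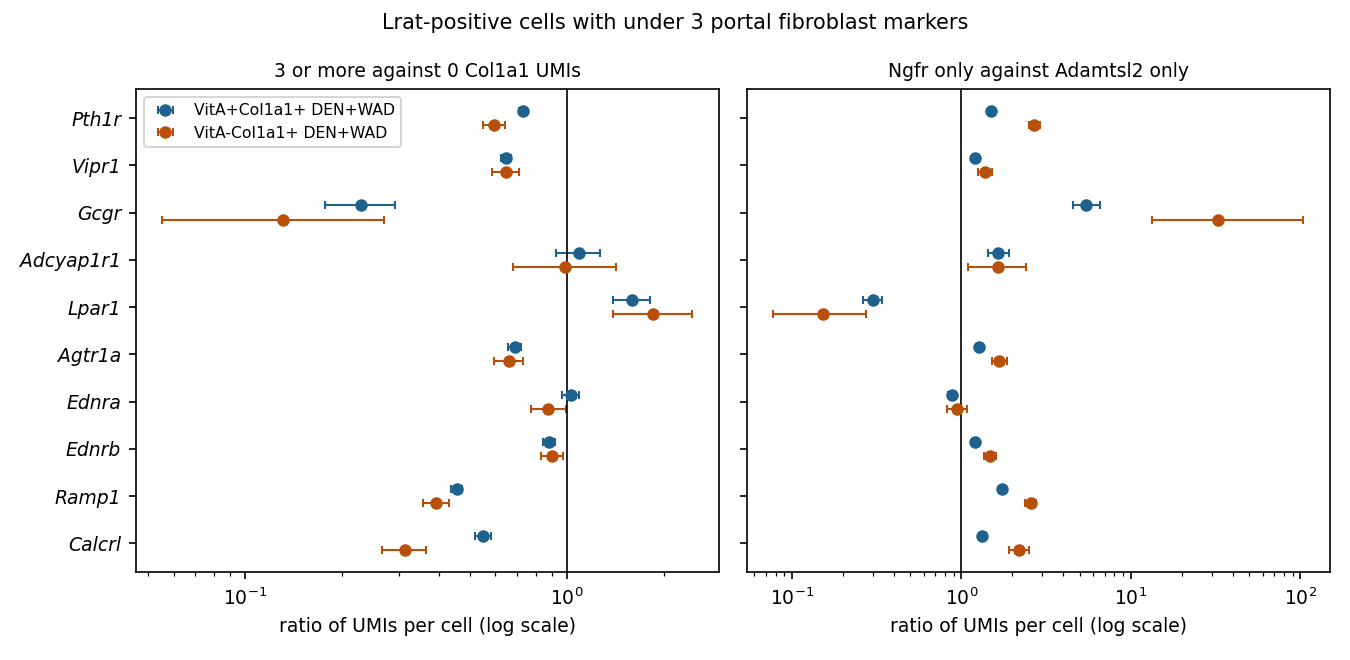
Ratio of UMIs per thinned cell (horizontal, log scale) for each receptor (vertical) between Lrat-positive cells with 3 or more and with 0 Col1a1 UMIs (left) and between cells with Ngfr only and with Adamtsl2 only (right), in the DEN+WAD libraries of the VitA+ (blue) and VitA- (orange) gates, with 95% counting intervals and cells of 3 or more portal fibroblast markers left out. Gcgr lies lowest on the left (0.229 and 0.131) and highest on the right (5.43 and 32.6), and Lpar1 lies on the opposite side of 1 in both panels.

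For each receptor, the 3 genes at 50 or more CPM with the largest ratio between VitA+ DEN+WAD cells with and without it were named. With Gcgr these were Mest (2.92, 2.66 to 3.20), Vtn (2.65, 2.44 to 2.87), which encodes vitronectin, and Tmem178 (2.57, 2.38 to 2.78), and in VitA- DEN+WAD the ratios were 6.67, 1.88 and 4.27. With Lpar1 they were the matrix genes Ogn (2.84, 2.52 to 3.21) and Dpt (2.62, 2.38 to 2.87) and the calcium-binding gene S100a6 (2.48, 2.24 to 2.75), and in VitA- DEN+WAD 2.33, 2.02 and 0.992. Dpt is also among the portal fibroblast markers. Ramp1 went with the complement gene C6 (2.73, 2.32 to 3.25), Tmem178 (2.45) and Rgs4 (2.41, 2.19 to 2.66), a regulator of G protein signalling, and Pth1r with Epor (3.41, 2.43 to 4.93), Tmem100 (3.25) and Rgs4 (3.07, 2.68 to 3.52). The cells without Pth1r were only 294, so its ratios rest on few cells, and they carried hepatocyte transcripts. Apoa1 was at 190 CPM in cells without Pth1r against 1.09 in cells with it, and Alb at 331 against 4.02. Alb was likewise at 204 against 4.06 for Vipr1, 218 against 4.06 for Ramp1 and 112 against 3.21 for Agtr1a. These hepatocyte genes were named after their values were seen, and their part in the ratios was not tested.

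Vipr1 went with Epor (2.54), Adamtsl4 (2.22) and Tmem56 (2.11), and Adcyap1r1 with Vtn (2.31), Htra1 (1.92) and Tmem178 (1.85). Calcrl went with the mechanosensitive channel gene Piezo2 (1.75), Ttyh1 (1.54) and Tmem100 (1.54). Ednrb went with Tmem100 (1.96), Npr3 (1.83) and Tmem178 (1.72), and Agtr1a with Adamtsl4 (1.53), Cadm1 (1.5) and Cyfip2 (1.46). Ednra had the smallest of these top ratios, with Tmem100 (1.26), Zfp638 (1.19) and Safb (1.16). On the low side, S100a6 (2.18-fold), Acta2 (2.01-fold) and Clec4g (1.91-fold) were lower in cells with Ednra. Tmem178 stood among the 3 for 4 receptors and Tmem100 for 4, and the ratios share the same cells and the same depth, so they are given without a test.

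The signalling genes around the receptors were counted from 5 lists. Of all genes tested, 1.41% were higher and 3.94% lower past 2-fold in the VitA+ diet comparison. In the VitA- diet comparison these shares were 5.04% and 5.54%. The lists are short, so small counts do not set a list apart from such shares. In DEN+WAD against chow within the VitA+ gate, of 5 measured ligands and ligand enzymes 0 passed 2-fold, of 4 related receptors 1 was higher and 1 lower, of 17 other vasoactive and hormone receptors 0 were higher and 3 lower, of 32 G proteins and effectors 1 was higher and 0 lower, and of 13 cyclic AMP response genes 0 were higher and 1 lower. Rgs4 was 2.42-fold higher in DEN+WAD (421 against 174 CPM). The natriuretic peptide receptor gene Npr1 was 2.16-fold lower and the cyclic AMP-induced kinase gene Sik1 2.05-fold lower. Within the VitA- gate, 2 of 9 ligand genes, 1 of 6 related receptors, 3 of 20 other receptors and 2 of 36 G protein genes were higher and 0, 0, 4 and 4 lower, with 0 of 13 cyclic AMP response genes higher and 2 lower. The nucleotide-sugar receptor gene P2ry14 (7.77-fold), the sphingosine phosphate receptor gene S1pr1 (4.21-fold), Rgs4 (4.18-fold), the cannabinoid receptor gene Cnr2 (3.75-fold) and Ramp2 (2.58-fold) were higher. Endothelial markers, whose cells hold Ramp2, summed to 2194 in VitA- DEN+WAD against 798 in VitA- chow. The adrenergic receptor gene Adra1a (4.26-fold), Nr4a3 (2.61-fold), Gnao1 (2.58-fold), Adcy6 (2.21-fold), the neuropeptide Y receptor gene Npy1r (2.16-fold), Gnai1 (2.10-fold) and Sik1 (2.07-fold) were lower.

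Between the gates of chow mice, 5 of 7 ligand genes and 3 of 6 related receptors were higher in VitA- cells and 0 lower. Over all 10569 genes tested there, 11.9% were higher and 5.68% lower. Enpp2 was 8.16-fold higher there. Also higher were the genes of the lipid phosphatases that degrade lysophosphatidic acid, Plpp3 (3.59-fold) and Plpp1 (2.91-fold). The scavenging chemokine receptor gene Ackr3 was 114-fold higher, an imprecise ratio (57.6 to 264) from 8 UMIs in VitA+ chow. Of 21 other receptors 4 were higher and 6 lower, of 35 G protein genes 7 higher and 2 lower, and of 13 cyclic AMP response genes 2 higher and 0 lower. P2ry14 (15.8-fold), Rgs4 (7.07-fold), S1pr3 (6.52-fold), Rgs5 (4.33-fold) and Npr3 (2.47-fold) were lower, while Nr4a2 (7.71-fold), Plcb4 (6.57-fold), Gnai1 (5.69-fold), Gnao1 (5.28-fold) and Nr4a3 (4.05-fold) were higher. Npy1r and Adra1a were higher from 4 UMIs each in VitA+ chow, which leaves their ratios imprecise. Between the gates of DEN+WAD mice, 6 of 9 ligand genes, 4 of 6 related receptors, 6 of 18 other receptors, 6 of 35 G protein genes and 2 of 13 cyclic AMP response genes were higher and 0, 0, 3, 2 and 0 lower. Over all 10270 genes tested there, 10.2% were higher and 1.72% lower. Enpp2 (5.99-fold), Plpp3 (5.14-fold), Plpp1 (5.00-fold), Ackr3 (10.7-fold), Plcb4 (5.39-fold) and Nr4a2 (5.98-fold) were higher again, and Rgs4 (4.09-fold), S1pr3 (3.38-fold), P2ry14 (3.27-fold), Rgs5 (2.91-fold) and the guanylate cyclase subunit gene Gucy1a1 (2.07-fold) lower. The portal fibroblast marker shares given above moved with each of these gate comparisons, and their part in them was not tested.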

How the data were processed

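In all, 5 droplet libraries were analysed, 1 a group. The authors made the deposited count matrices with Cell Ranger 3.1.0 on mm10 per the study's methods; the file headers give 3.1.0 for the Col1a1+ libraries and 6.1.2 for VitA-Col1a1-, and the labels name both a v2 and a v3.1 kit. Each deposited value is a whole-number count of UMIs, with barcodes already filtered by the authors. UMIs were summed over all barcodes and scaled to CPM (UMIs per 1000000). Groups came from the sample labels. With 1 library a group no test was run: ratios have exact conditional binomial, levels exact Poisson and shares Clopper-Pearson 95% intervals, and a library at 0 was set to a floor of 3 UMIs. All 10 listed members were named, with list genes and like genes by rules on size (20 or 50 CPM). For shares and pairs, cells of 5000 or more UMIs with 1 or more Lrat UMIs were thinned to 5000 in 1 seeded draw. No doublet caller was run, and cells with 4 or more markers of another type were left out as an alternative (73, 91, 3, 4 and 1092 Lrat-positive cells in VitA+ DEN+WAD, VitA- DEN+WAD, VitA+ chow, VitA- chow and the library labelled VitA-Col1a1-). The ratio and interval code was tested on simulated data. The members and gene lists were chosen with earlier results of these data known, and the portal fibroblast and 5-UMI Lrat restrictions were added after seeing the data. Promoter windows and gene positions came from RefSeq and GENCODE on GRCm38. Python 3.11.15, numpy 2.4.6, scipy 1.17.1, pandas 2.3.3, matplotlib 3.10.9 and, for TMM, edgeR 4.0.16 in R 4.3.3 were used. Depth sets the precision: 1 UMI is worth least in VitA+ DEN+WAD and most in VitA+ chow.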

Additional observations from a re-analysis of the deposited data

Results flagged for a closer look

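For 3 receptors the DEN+WAD against chow ratio pointed in opposite directions in the vitamin A gates. On the log2 scale, Vipr1 was at -0.59 in the VitA+ gate and 1.22 in the VitA- gate, Calcrl at -0.64 and 1.62, and Ednra at -0.10 and 1.05. The difference was not tested, since each gate has 1 library a diet. Ednra in the VitA+ gate turned to 0.09 with TMM scaling and to 0.03 with median-of-ratios scaling, which removes the opposition for that gene. Portal fibroblast markers moved with the VitA- value (82.3% of Lrat-positive cells with 3 or more of them in chow, 32.2% in DEN+WAD). In Lrat-positive cells with fewer, the VitA- values were 0.12 for Vipr1 and 0.39 for Calcrl.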

How the results depend on the processing

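No paired analysis was possible because each group has 1 library and no result comes from a test. Beside the reported values, 159 counts of members or pairs stayed within 1.5 times and 32 moved. Of single values, 283 stayed within their counting interval, 346 moved and 1 past 2-fold reversed: Lpar1 between the gates of chow mice turned to -0.60 (log2) in Lrat-positive barcodes with under 3 portal fibroblast markers. A further 8 values under 2-fold, with intervals clear of 1, changed sign, among them Lpar1 in the VitA- diet comparison (-0.62 to 0.65 under the same restriction), Adcyap1r1 there (-0.22 to 0.12 with 5 or more Lrat UMIs), Ednra in the VitA+ one (2 scalings) and Ednrb between the DEN+WAD gates (-0.06 to between 0.07 and 0.20 in 4 settings). That restriction also left 0 members higher in VitA- DEN+WAD against chow, 0 higher in the chow gates and 1 lower in the DEN+WAD gates. At 1.5-fold, 2 members were lower in the VitA+ diet comparison, 1 lower in the VitA- one and 1 higher in the DEN+WAD gates. Those gates gave 1 higher without barcodes of other cell types and 2 lower with 5 or more Lrat UMIs. The share over all genes was not computed at 1.5-fold or in these last settings, so their counts have no background. Members held by 50% or more of cells came to 2 in VitA- DEN+WAD and 0 in the library labelled VitA-Col1a1- when thinned to 2000, and in VitA- chow to 6 without thinning, 2 with 5 or more Lrat UMIs and 6 without cells of 3 or more portal fibroblast markers. Pairs apart came to 1 in VitA+ DEN+WAD without thinning, and in VitA+ chow to 3 without thinning and 2 over every thinning. Without endothelial or macrophage marker cells, 1 pair was together in VitA+ chow and 9 in VitA- chow. Without portal fibroblast marker cells, 2 were apart in VitA- DEN+WAD, 9 together and 0 apart in VitA- chow, and 1 apart in the library labelled VitA-Col1a1-, which with 5 or more Lrat UMIs had 11 together and 1 apart. Ordered by summed Col1a1, Col1a2 and Col3a1, 3 members were higher in VitA+ DEN+WAD, 8 higher and 1 lower in VitA- DEN+WAD and 1 lower in the library labelled VitA-Col1a1-; the cells at 0 then carried 4 or more markers of another type in 11.7%, 73.0% and 97.3%. In that last library, ordering by Col1a1 gave 3 lower and 6 higher as reported, 5 lower and 1 higher with 2 or more Lrat UMIs and 7 lower and 1 higher with 5 or more. VitA+ chow and VitA- chow had under 20 cells in a bin for the summed collagens, as had VitA- chow with 5 or more Lrat UMIs, so no value was given. Where not stated, the cause was not tested. Depth limits Gcgr, Adcyap1r1 and Lpar1 most, being found in under 30% of thinned VitA+ cells, and VitA+ chow, the smallest library.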
